A study of Mus musculus with 12 samples.

Results

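Bicarbonate reclamation and sodium-proton exchange in the proximal tubule were followed through 8 genes in kidneys after ischemia. These genes were chosen by name: the exchanger Slc9a3 and its scaffold Slc9a3r1, the cotransporter Slc4a4, and the carbonic anhydrases Car2, Car4, Car12, Car14 and Car15. All 8 were among the 23420 genes of the count table, and 7 of them passed the filter on low counts, which kept 11664 genes; Car4 did not pass.

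The kidneys came from male C57BL/6J mice of 8 to 15 weeks. There were 12 kidneys in all, 4 control kidneys removed at nephrectomy and 8 kidneys collected 24 h after a renal ischemia of 20 min. In the protocol of the study a remote clamp was placed around the renal pedicle under ketamine and xylazine, with buprenorphine given afterwards. During ischemia, mice were either awake, apart from a short isoflurane sedation to close and open the clamp, or anaesthetised with ketamine and xylazine, which was also given before kidneys were collected. The control kidneys were taken without ischemia according to the methods of the study, although their labels repeat the ischemia protocol. The study describes clamp placement with or without removal of the right kidney, and does not state which applied to the sequenced ischemic kidneys. The effects of ischemia, of the clamp surgery and of any loss of the other kidney cannot be told apart. Whether a control kidney came from a mouse that also gave an ischemic kidney is not given in the sources used here. For the ischemic kidneys, titles and group labels are in conflict. Ischemia set A holds the 4 kidneys that are anaesthetised by title and conscious by group label, ischemia set B holds the 4 that are the reverse, and no direction is assigned to anaesthesia. Both sets were compared with the same 4 control kidneys, so these comparisons are not independent. The study describes mice and not pools, and the p-values measure the spread between these kidneys.

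In the proximal tubule, protons leave the cell through the apical sodium-proton exchanger NHE3, encoded by Slc9a3, and combine with filtered bicarbonate. Membrane-bound carbonic anhydrases speed up the conversion of the carbonic acid so formed to water and carbon dioxide in the lumen, the cytosolic enzyme reverses the reaction inside the cell, and the basolateral cotransporter NBCe1, encoded by Slc4a4, returns bicarbonate to the blood with sodium. NHERF1, encoded by Slc9a3r1, is a PDZ-domain scaffold that holds NHE3 and the phosphate transporter at the brush border. Whole kidney RNA was measured, in which fewer cells of a type and less RNA per cell cannot be told apart.

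The genes lie on 6 chromosomes of the mouse, and the stretches upstream of RefSeq starts are shown for the members that were lower in both sets with a called change. Each stretch is the 250 bases before the start, in build GRCm38.p6, on the forward strand, and none of these 4 windows holds an annotated exon. Capitals mark the GC box, GGGCGG, and the CCAAT box, ATTGG, each searched on both strands.
Slc9a3, chr13:74121163-74121412: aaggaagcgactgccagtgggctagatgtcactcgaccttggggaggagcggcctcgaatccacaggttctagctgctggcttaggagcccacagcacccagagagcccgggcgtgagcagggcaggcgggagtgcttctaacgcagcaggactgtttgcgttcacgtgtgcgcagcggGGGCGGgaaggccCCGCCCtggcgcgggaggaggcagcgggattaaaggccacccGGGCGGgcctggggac
Slc9a3r1, chr11:115163091-115163340: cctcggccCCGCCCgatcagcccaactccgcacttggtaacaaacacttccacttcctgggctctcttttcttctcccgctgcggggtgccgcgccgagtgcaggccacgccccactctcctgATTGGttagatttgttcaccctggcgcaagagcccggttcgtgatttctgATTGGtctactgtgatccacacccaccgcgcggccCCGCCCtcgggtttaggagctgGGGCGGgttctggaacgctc
Slc4a4, internal start, chr5:89027716-89027965: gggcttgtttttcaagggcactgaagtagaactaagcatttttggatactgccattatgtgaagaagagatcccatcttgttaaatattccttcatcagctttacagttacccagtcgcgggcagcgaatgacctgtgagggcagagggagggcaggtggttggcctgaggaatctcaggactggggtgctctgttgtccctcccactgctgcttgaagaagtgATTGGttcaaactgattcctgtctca
Car12, chr9:66713436-66713685: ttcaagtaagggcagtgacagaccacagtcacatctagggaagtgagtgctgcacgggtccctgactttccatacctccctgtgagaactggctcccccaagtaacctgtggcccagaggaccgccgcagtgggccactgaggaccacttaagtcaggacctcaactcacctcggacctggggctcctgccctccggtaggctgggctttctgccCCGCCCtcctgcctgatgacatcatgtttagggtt
The Slc9a3 window held 3 GC boxes, the Slc9a3r1 window 3 GC boxes and 2 CCAAT boxes, the Car12 window 1 GC box, and the internal Slc4a4 window 1 CCAAT box and 0 GC boxes. Of 32851 RefSeq promoters of the same length, 32.7% held a GC box and 33.8% a CCAAT box. None of the 4 windows held TATAAA (12.4% of all promoters), the HNF1 half-site GTTAAT (6.43%) or the HNF4 site CAAAGTCCA (0.384%). GC content was 67.6% for Slc9a3, 62.8% for Slc9a3r1, 59.2% for Car12 and 48.8% for the internal Slc4a4 start, beside a median of 52.4% over all promoters. A second Slc4a4 start lies farther upstream, and its window, not printed since it overlaps an annotated exon of the gene, held 1 GC box and 0 CCAAT boxes at 82.0% GC. Counts per gene do not separate transcripts from the 2 starts. RefSeq windows were found for 7 of the 8 genes, and a match of letters is a description and not a binding site.

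The identity of the tissue was checked first. All 8 proximal tubule markers were measured, with a summed level between 6910 and 7774 CPM (counts scaled to library size) among the controls, 736 to 1390 CPM within set A and 455 to 1450 CPM within set B, and all 8 passed the test as lower in each set. Between the sets 1 of these 8 differed, Slc5a12, a lactate cotransporter, at 13.6 ± 3.35 CPM within set A and 48.9 ± 23.4 CPM within set B (SD, n = 4; adjusted p = 0.0328 in edgeR), beside 137 ± 15.3 CPM among the controls, and no condition was assigned to a set from measured levels. The Slc5a12 call depends on the analysis, since no gene passed between the sets in limma or in an edgeR fit of those sets alone. The 3 markers of injured tubule were higher in each set. Of the 4 markers of the thick ascending limb, the segment after the proximal tubule and thin limb, 1 passed as lower in each set, Slc12a1, the sodium-potassium-chloride cotransporter, which stood at 1511 ± 42.3 CPM among the controls, 179 ± 16.5 CPM within set A and 256 ± 184 CPM within set B (SD, n = 4; adjusted p = 3.09e-07 and 2.61e-06 in edgeR). The summed level of these 4 markers was 1628 to 1713 CPM among the controls, 285 to 392 CPM within set A and 269 to 778 CPM within set B. Of the 3 podocyte markers 1 passed as higher in each set, Podxl, encoding podocalyxin, at 70 ± 7.24, 128 ± 26.1 and 110.1 ± 25 CPM (SD, n = 4; adjusted p = 0.00153 and 0.0142 in edgeR), and their sum was 72.9 to 93 CPM among the controls, 99.9 to 164 CPM within set A and 100.1 to 147 CPM within set B. Of the erythroid markers 1 was tested, Alas2, at 2.44 ± 2.08 CPM among the controls, 0.218 ± 0.275 CPM within set A and 0 CPM within set B (SD, n = 4). It passed as lower in set B (adjusted p = 0.0266 in edgeR) and did not pass in set A (adjusted p = 0.311). The part of these other cell types in the results on the 8 genes was not tested. The 3 fat markers were at 0 counts in every kidney. Total counts per kidney lay between 15367342 and 44793350, so that 3 counts, taken as the detection floor, correspond to 0.0661 to 0.19 CPM. Floors cover counting error only.

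The exchanger, its scaffold, the basolateral cotransporter and the most abundant carbonic anhydrase by count all had less RNA after ischemia, in every kidney of both sets. By the quasi-likelihood test of edgeR, with a Benjamini-Hochberg adjusted p below 0.05 over all tested genes, 5 of the 7 members tested were lower in set A against control and 0 were higher, beside 11.7% of all tested genes lower and 10.5% higher. In set B against control 4 were lower and 1 was higher, beside 11.9% and 10.9% of all tested genes. The median log2 fold change of the 7 members was -1.64 for set A and -1.06 for set B, with a median of -0.02 over all tested genes in each. Slc9a3, Slc9a3r1, Slc4a4 and Car12 were lower in both comparisons, Car14 passed the test in set A, and Car2 was higher in set B.

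**Figure D1:**
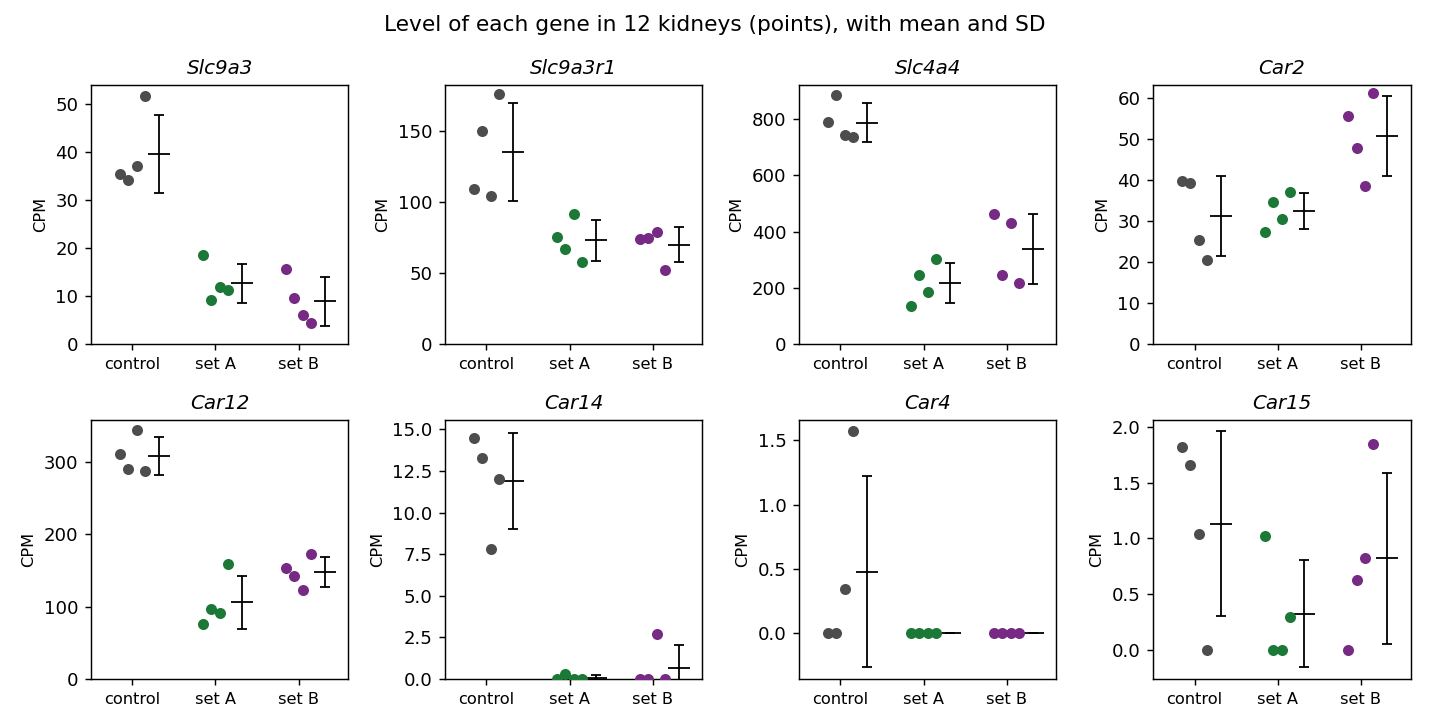
Level of each of the 8 genes in the 12 kidneys, in CPM on linear axes that differ between panels, with 1 point per kidney and the mean and SD (n = 4) at the right of each group. In Slc9a3, Slc9a3r1, Slc4a4, Car12 and Car14 every ischemic kidney lies below every control kidney, whereas 3 of the 4 Car2 values of set B lie above all controls.

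Slc9a3 (chromosome 13, 74121457 to 74169442 of mm10, forward strand) stood at 35.5, 34.2, 37.1 and 51.6 CPM in the 4 control kidneys. In set A it was at 18.5, 9.11, 12 and 11.3 CPM, and in set B at 15.7, 9.68, 6.04 and 4.32 CPM. The groups did not overlap, since the highest ischemic kidney, at 18.5 CPM, was below the lowest control. The mean fell from 39.6 ± 8.08 CPM (SD, n = 4) to 12.7 ± 4.03 CPM in set A, a 3.11-fold lower level in the fit (log2 fold change -1.64, SE 0.36, adjusted p = 0.00227), and to 8.94 ± 5.05 CPM in set B, 4.41-fold lower (log2 fold change -2.14, SE 0.37, adjusted p = 0.000224). Kidneys of set B differed among themselves more than those of set A, with a highest value 3.64 times the lowest, beside 2.03 times in set A and 1.51 times in the controls.

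Slc9a3r1 (chromosome 11, 115163341 to 115181181, forward strand) was at 109, 150.1, 104 and 176 CPM in the controls. It was at 75.5, 66.6, 91.8 and 57.9 CPM in set A and at 74.1, 74.6, 79.2 and 52.0 CPM in set B. Every ischemic kidney was again below every control, but by a smaller step than for the exchanger itself. The mean of 135 ± 34.5 CPM (SD, n = 4) in the controls became 72.9 ± 14.5 CPM in set A (log2 fold change -0.89, SE 0.20, adjusted p = 0.00253) and 70 ± 12.2 CPM in set B (log2 fold change -0.95, SE 0.20, adjusted p = 0.00146). Within kidneys, the ratio of Slc9a3r1 to Slc9a3 counts was 3.42 ± 0.691 among the controls, 6.04 ± 1.71 within set A and 9.39 ± 3.90 within set B (SD, n = 4). The ratio in set B was above that of the controls in a two-sided exact permutation test (p = 0.0286, the smallest that 4 kidneys against 4 allow), while for set A the exact test returned p = 0.0571 and the range of the ratio overlapped that of the controls. Over the 12 ratio tests run, none passed after Benjamini-Hochberg adjustment of these exact permutation p-values (smallest adjusted p = 0.114).

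Slc4a4 (chromosome 5, 88886818 to 89239653, forward strand) had the highest counts of the 8 genes. The controls were close together at 789.6, 883, 743 and 734 CPM, whereas set A held 135, 245, 185 and 301 CPM and set B 462, 247, 429 and 219 CPM. All 8 ischemic kidneys were below the controls, and 2 kidneys of set B were above every kidney of set A. The mean fell from 787 ± 68.3 CPM (SD, n = 4) to 217 ± 72.0 CPM in set A, 3.64-fold lower (log2 fold change -1.86, SE 0.24, adjusted p = 6.89e-06), and to 339 ± 124 CPM in set B, 2.32-fold lower (log2 fold change -1.21, SE 0.23, adjusted p = 0.000605). The ratio of Slc4a4 to Slc9a3 counts was 20.6 ± 4.85 among the controls, 19.1 ± 9.52 within set A and 44.2 ± 21 within set B (SD, n = 4). Two-sided exact permutation tests gave p = 0.714 for this ratio in set A and p = 0.0571 in set B.

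The carbonic anhydrases did not all move in 1 direction. Car12 (chromosome 9, 66713686 to 66766845, forward strand), a membrane-spanning isoform with its active site outside the cell, was at 311, 291, 345 and 288 CPM in the controls. In set A it was at 76.5, 96.3, 90.9 and 159 CPM, and in set B at 153, 143, 123 and 173 CPM. No ischemic kidney reached the controls, and replicate 4 was the highest in each ischemic set. The mean fell from 309 ± 26.2 CPM (SD, n = 4) to 106 ± 36.5 CPM in set A (log2 fold change -1.55, SE 0.19, adjusted p = 3.47e-06) and to 148 ± 20.8 CPM in set B (log2 fold change -1.06, SE 0.19, adjusted p = 0.000233).

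Car2 (chromosome 3, 14886273 to 14900770, forward strand) encodes the cytosolic isoform, which is found in proximal tubule cells and at high levels in intercalated cells of the collecting duct. It was at 39.8, 39.2, 25.4 and 20.6 CPM in the controls, at 27.2, 34.7, 30.6 and 37.1 CPM in set A and at 55.5, 47.7, 38.6 and 61.1 CPM in set B. Set A lay within the range of the controls, and 3 of the 4 kidneys of set B lay above it. The mean was 31.3 ± 9.74 CPM (SD, n = 4) in the controls and 32.4 ± 4.41 CPM in set A, a log2 difference of 0.05 with a 95% interval from -0.42 to 0.52 (adjusted p = 0.939). In set B it rose to 50.7 ± 9.77 CPM, 1.62-fold higher (log2 fold change 0.70, SE 0.24, adjusted p = 0.0428). This call is near the threshold. It was lost in 11 of 19 alternative analyses, over which the adjusted p lay between 0.0255 and 0.152, and the exact permutation test gave p = 0.0857. In edgeR the adjusted p was 0.135 and 0.152 without replicate 3 or 4 of the controls, and 0.106, 0.0735 and 0.105 without replicate 1, 2 or 4 of set B. It was 0.0504, 0.0582 and 0.053 without replicate 2, 3 or 4 of set A, which enter this comparison through the shared estimate of spread. The summed level of the 6 intercalated cell markers was 219 to 384 CPM among the controls, 162 to 319.9 CPM within set A and 188 to 485 CPM within set B, with 2 markers lower in set A, 1 lower in set B and 0 higher in either. Log2 fold changes were positive in both sets, without passing, for Foxi1 (0.22 and 0.68), Atp6v1g3 (0.20 and 0.81) and Atp6v0d2 (0.12 and 0.43). The other 3 markers had negative values in both sets. The part of these markers in the Car2 difference was not tested.

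Car14 (chromosome 3, 95897768 to 95904691, reverse strand), another membrane-spanning isoform of the proximal tubule, was at 14.5, 13.3, 7.83 and 12 CPM in the controls. After ischemia 3 of 4 kidneys of each set had 0 counts, the exceptions being replicate 2 of set A with 7 counts (0.299 CPM) and replicate 3 of set B with 56 counts (2.71 CPM). Every ischemic kidney was below every control. Kidneys at 0 were then set to the floor of 3 counts per library. The Car14 mean of set A was at least 74.4-fold below the control mean, and that of set B at least 15-fold below it. These bounds allow for the floor but not for the spread between kidneys. Measured from the lowest control kidney instead of the control mean, they shrank to 48.9-fold (set A) and 9.83-fold (set B). The bounds rest on the kidneys with counts: without replicate 3 of set B its bound was 74.3-fold (log2 fold change -11.36, beside -4.12 with it), and without replicate 2 of set A the bound of that set was 104-fold. With all kidneys, the 95% interval of the log2 fold change was -10.88 to -3.74 for set A. For set B it was -7.12 to -1.12, so a far smaller fall than the bound is not excluded there. The adjusted p was 0.00558 for set A and 0.0596 for set B (edgeR), and without replicate 3 of set B the latter was 0.000471. For set B the adjusted p was also 0.0475 without replicate 2 of set A, 0.00138 in limma and 0.253 in DESeq2. Exons of Car14 overlap those of Aph1a on the opposite strand. The libraries were stranded, but the strand setting of the counting is not given in the sources used here. Aph1a was at 570.3 ± 34.2, 333 ± 28.6 and 361 ± 48.4 CPM (SD, n = 4) in control, set A and set B.

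Both isoforms that are anchored to the membrane by a lipid, Car4 and Car15, had the lowest mean levels of the 8 genes in the controls, and at most 64 counts in any kidney. In both ischemic sets the mean of Car14 was below that of Car15. Car4 (chromosome 11, 84957786 to 84966044, forward strand), the classical brush border isoform, had 0 counts in 2 control kidneys, 9 and 60 counts in the others, and 0 counts in all 8 ischemic kidneys. In a fit without the filter, over 14213 genes, its adjusted p was 0.213 for set A and 0.225 for set B, and neither passed. The control kidneys with 0 and with 60 counts included a pair of similar depth, replicates 2 and 4, with totals of 39155807 and 38977644. Car15 (chromosome 16, 17835276 to 17838364, reverse strand) was at 1.82, 1.66, 1.04 and 0 CPM in the controls, at 1.02, 0, 0 and 0.301 CPM in set A and at 0, 0.632, 0.822 and 1.84 CPM in set B. The groups overlapped and neither comparison passed the test (adjusted p = 0.692 in set A and 0.933 in set B). Exons of Car15 overlap those of Gm20518 on the same strand. The annotated transcripts of these low genes are short, with a longest transcript of 1256 bases for Car4, 1283 for Car15 and 1709 for Car14, beside 7931 for Slc4a4. Slc9a3r1 and Car2 are of a similar class of length, at 1925 and 1788 bases, and stood at 135 and 31.3 CPM in the controls. Across the series 15.6% of protein-coding genes with a longest transcript under 1 kb and 30.0% of those of 1 to 2 kb reached 10 counts in all 4 controls, against 68.8% of those over 6 kb. The part of transcript length in the low counts of Car4, Car14 and Car15 was not tested.

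**Figure D2:**
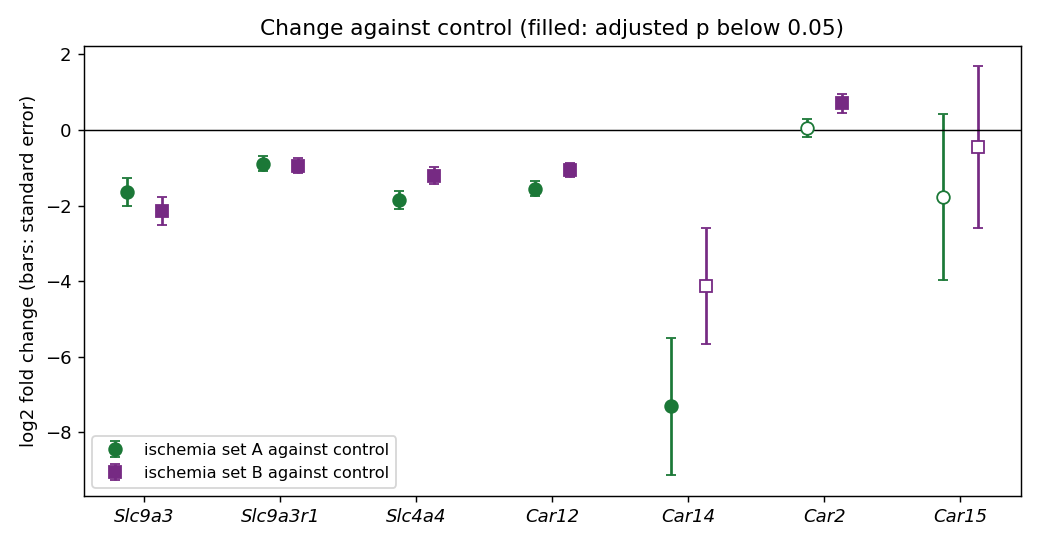
Log2 fold change of each tested member against control, with set A as circles, set B as squares and bars for the standard error of the edgeR fit; filled symbols have an adjusted p below 0.05. Slc9a3, Slc9a3r1, Slc4a4 and Car12 lie between -2.14 and -0.89 with filled symbols in both sets, and Car14 and Car15 have standard errors above 1.

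Slc9a3, Slc9a3r1, Slc4a4, Car12 and Car14 were lower than in the controls without overlap, 5 members for set A and 5 for set B, beside 15.7% and 15.1% of all tested genes. Where 4 kidneys do not overlap with 4 others, the two-sided exact permutation test of log2 CPM gives p = 0.0286 by construction, the smallest it can give, and so adds nothing to these counts. Of 21 such tests over members and comparisons, none passed after Benjamini-Hochberg adjustment (smallest adjusted p = 0.0545).

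Levels of different genes were compared per kilobase of annotated exon. In the controls the order was Slc4a4 at 72.8 ± 6.31 CPM per kb, Slc9a3r1 at 70 ± 17.9, Car12 at 40.7 ± 3.45, Car2 at 12.9 ± 4.02, Slc9a3 at 7.2 ± 1.47, Car14 at 4.69 ± 1.15, Car15 at 0.594 ± 0.433 and Car4 at 0.243 ± 0.378 CPM per kb (SD, n = 4). The ranges of Slc4a4 and Slc9a3r1, of Car2 and Slc9a3, and of Car15 and Car4 overlapped, so the order within these pairs is not beyond the spread. Slc4a4 exceeded Slc9a3 by 10.5 ± 2.47 times per kilobase. After ischemia Slc9a3r1 had the highest mean level per kilobase in each set, at 37.9 ± 7.51 CPM per kb in set A and 36.3 ± 6.32 in set B, ahead of Slc4a4 at 20.0 ± 6.66 and 31.4 ± 11.5. With the longest transcript as the length, Car12 came second in the controls at 83.1 CPM per kb, and Slc4a4 was first in set B.

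The shares of Car12 and Car2 among the carbonic anhydrase transcripts did not overlap between control and ischemic kidneys. The summed level of the 5 isoforms was 59.1 ± 5.10 CPM per kb among the controls, 27.5 ± 6.33 within set A and 41.1 ± 6.50 within set B (SD, n = 4). Car12 made up 69.0 ± 6.47% of this sum among the controls, 49.8 ± 5.23% within set A and 47.5 ± 0.968% within set B. The share of Car2 was 21.6 ± 5.37% among the controls, 49.4 ± 4.91% within set A and 50.7 ± 2.45% within set B, and that of Car14 went from 7.95 ± 1.87% to 0.109 ± 0.217% and 0.791 ± 1.58%. The lowest Car2 share of an ischemic kidney was 42.1%, above the highest control at 26.7%. The size of these shares depends on the length used, here all annotated exon. Per kilobase of longest transcript, the mean of Car12 was 28.4 and that of Car2 18.1 CPM per kb in set A. In set B they were 39.8 and 28.4 CPM per kb, so Car12 stayed ahead in each set. Within kidneys, the ratio of Car12 to Car2 counts was 10.7 ± 3.57 among the controls, 3.21 ± 0.716 within set A and 2.94 ± 0.191 within set B, without overlap with the controls in either set (exact two-sided permutation, p = 0.0286 in both, the smallest possible). In set A the shift came with a fall of Car12 and a Car2 level inside the control range.

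**Figure D3:**
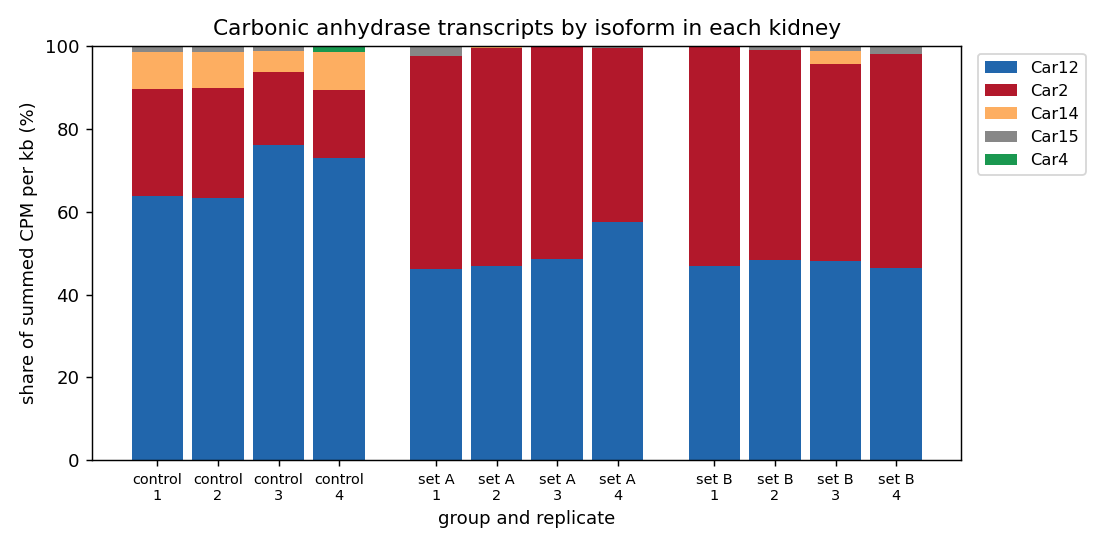
Share of each carbonic anhydrase isoform in the summed CPM per kb of the 5 isoforms, in percent, with 1 stacked bar per kidney. Car12 holds 63.2 to 76.1% in the control kidneys and 46.1 to 57.4% in the ischemic kidneys, where Car2 takes 42.1 to 53.2%. Lengths are of annotated exon, and with the longest transcript as length the mean level of Car12 was above that of Car2 in each group.

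The members were then set against the proximal tubule markers measured in the same kidneys. The mean log2 CPM of the 8 markers was 7.99 ± 0.08 among the controls, 5.10 ± 0.51 within set A and 4.93 ± 0.64 within set B (SD, n = 4), a fall of the mean by 2.89 and 3.06. This comparison was added after the data had been seen. Relative to the markers, Slc9a3r1 stood higher than in the controls by 2.02 on the log2 scale in set A and 2.14 in set B, Slc4a4 by 0.97 and 1.78, Car12 by 1.29 and 2.0, and Car2 by 2.99 and 3.80. In each of these 8 cases all 4 ischemic kidneys were above all controls (two-sided exact permutation test, p = 0.0286, Benjamini-Hochberg adjusted p = 0.0444 over 14 tests). For Slc9a3 the differences were 1.23 and 0.78, with 3 of 4 kidneys above all controls in each set (exact permutation test, p = 0.0571 for each). Relative to the markers Car14 changed by -3.82 in set A (exact permutation test, p = 0.0286), with all 4 kidneys below all controls, whereas in set B 3 kidneys were below and 1 above (p = 0.143 in the same exact test). With Slc5a12 and Slc7a13 left out of the marker mean, the difference of Slc4a4 in set A was 0.54 (exact permutation test, p = 0.0571). Against these 6 markers the differences of Slc9a3 were 0.80 in set A and 0.38 in set B (p = 0.114 and 0.2 in the exact permutation test), and in set B 3 kidneys were above all controls and 1 below. That of Car12 in set A was 0.86. With 6 markers the smallest Benjamini-Hochberg adjusted p over the 14 exact permutation tests was 0.05, at the threshold.

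**Figure D4:**
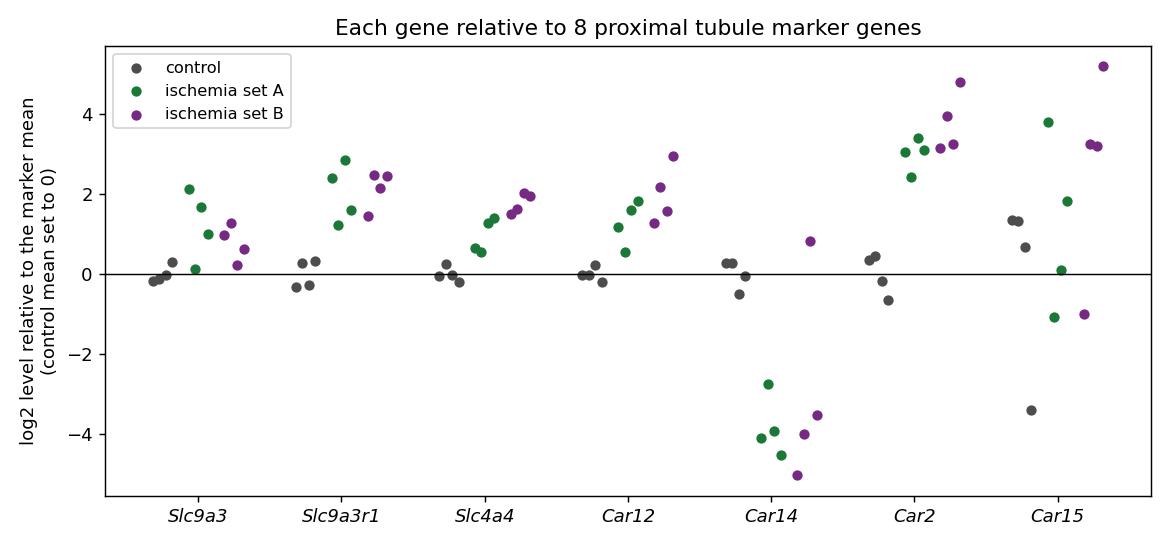
Log2 CPM of each tested member minus the mean log2 CPM of 8 proximal tubule markers in the same kidney, shifted so that the control mean is 0, with 1 point per kidney. Slc9a3r1, Slc4a4, Car12 and Car2 lie above the controls in all 8 ischemic kidneys, and Car14 lies below them in 7 of 8.

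Set B was compared with set A directly. In edgeR's quasi-likelihood test 0 of the 7 members passed, with a smallest adjusted p of 0.93, and 0 passed in DESeq2 or in limma. Of all tested genes, 0.00857% passed. At an unadjusted p below 0.05 there were 3 members, beside 5.03% of all tested genes: Slc4a4 (log2 difference of set B from set A 0.65, 95% interval 0.20 to 1.10, unadjusted p = 0.0113), Car2 (0.65, 0.18 to 1.12, p = 0.0146) and Car12 (0.49, 0.14 to 0.84, p = 0.0157), all in the edgeR fit and all higher in set B. Car2 was the single member without overlap between the sets, where 1.29% of all tested genes were higher without overlap and where the exact permutation test gives its smallest p, 0.0286, by construction. For Slc9a3 the log2 difference was -0.50 (95% interval -1.21 to 0.21) and for Slc9a3r1 -0.06 (-0.45 to 0.33). Car14 and Car15 did not pass either (adjusted p = 0.99 and 1.0 in edgeR). The intervals reach 1.10 for Slc4a4 and 1.12 for Car2 on the log2 scale, and the sets are not shown to be alike.

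Genes of the same pathways outside these 8 were counted in the same fit, and the counts stand beside 11.7% of all tested genes lower and 10.5% higher in set A, and 11.9% and 10.9% in set B. Among the other sodium-proton exchangers, Slc9a8, encoding NHE8, another exchanger of the proximal brush border, fell from 769.5 ± 153 CPM (SD, n = 4) to 125 ± 8.43 CPM in set A (log2 fold change -2.63, SE 0.15) and 111 ± 13.8 CPM in set B (-2.80, SE 0.15). Of the 6 other carbonic anhydrases tested, Car13, a cytosolic isoform, rose in each set, from 0.0974 ± 0.195 CPM to 3.47 ± 2.21 CPM in set A (adjusted p = 0.0349) and 3.23 ± 4.84 CPM in set B (adjusted p = 0.0375). Car3, known from muscle and fat, was at 5.59 ± 1.39 CPM in the controls and at 0 in all of set A (adjusted p = 0.00368), and in set B it stood at 0.227 ± 0.455 CPM (adjusted p = 0.0762). Car5b, the mitochondrial isoform, did not pass (log2 fold change 0.21 and 0.24). Of 12 other bicarbonate and anion exchangers, 1 was lower and 2 were higher in each set, shares near those of all tested genes: Slc4a1, the band 3 exchanger of intercalated cells and red cells (-2.13 and -2.98), and Slc4a2 (0.48 and 0.57) and Slc4a3 (1.32 and 1.38), both members of the anion exchanger family.

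Of 13 partners of NHE3, 5 were lower and 3 higher in each set, again beside 11.7% and 10.5% of all tested genes in set A and 11.9% and 10.9% in set B. Ezr and Msn, encoding ezrin and moesin, which link membrane scaffolds to actin, rose (log2 fold change 1.10 and 2.17 in set A, 1.14 and 2.07 in set B), while their relative Rdx (-0.75 and -0.73), the motor Myo6 (-1.08 and -0.86) and Ahcyl1, encoding an NHE3-binding protein (-0.51 and -0.56), fell. Of 6 hormone receptors, 2 were lower in each set, namely Pth1r, the receptor for parathyroid hormone (-1.63 and -1.70), and Nr3c1, the glucocorticoid receptor (-0.46 and -0.60). Adra1b, an adrenergic receptor, was higher in set A (1.58, adjusted p = 0.0117) and did not pass in set B (0.94, adjusted p = 0.133). Of 6 genes of ammonia synthesis from glutamine, 3 were lower in each set: Slc38a3, the glutamine transporter (-1.09 and -1.61), Pck1 (-1.74 and -1.22) and Slc7a7 (-2.69 and -2.34). Glud1, the gene of this list with the highest mean CPM, did not pass in either set (0.14 and -0.05), so the list did not fall as a whole. Of 6 proton pump subunits, 4 were lower in each set, with Atp6v1a at -1.27 and -1.25. Among the sodium and water partners, Slc34a1, the phosphate cotransporter (-3.55 and -3.53), Aqp1, the water channel (-2.71 and -3.03), and Slc5a2, the glucose cotransporter (-2.47 and -1.97), fell in each set.

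**Figure D5:**
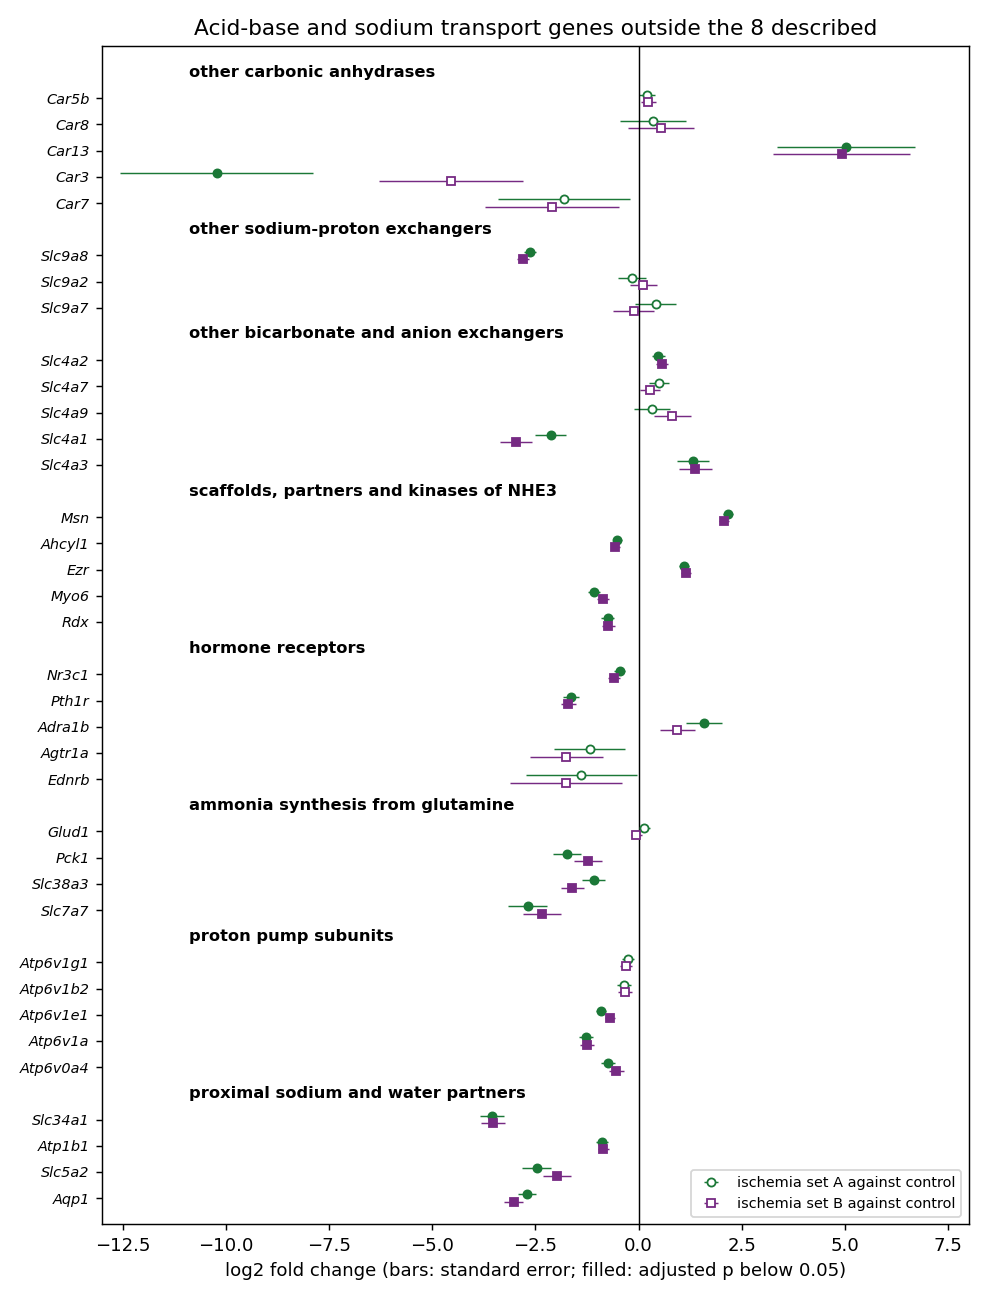
Log2 fold change against control of up to 5 genes from each of 8 lists, those with the highest mean CPM, with bars for the standard error and filled symbols for an adjusted p below 0.05 in edgeR. Slc9a8, Pth1r, Slc7a7, Slc34a1 and Aqp1 lie at or below -1.63 in both sets, and Msn, Ezr, Slc4a3 and Car13 lie at or above 1.10.

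For each member the genes most like it over the 12 kidneys were found by the root mean square difference of log2 CPM, after subtraction of each gene's control mean, among 6443 genes. Slc9a3 was closest to Dhrs4 (0.42), Sephs2 (0.43) and Hibadh (0.44), Slc9a3r1 to Wnk1 (0.21), Lrrc58 (0.22) and Stt3b (0.24), and Slc4a4 to Slc31a1 (0.30), Adk (0.33) and Trpc1 (0.33). Car12 was closest to Mpped2 (0.25), Crebrf (0.25) and Sdha (0.27), and Car2 to Atp7a (0.23), Plagl2 (0.27) and Nfat5 (0.27). For Car14 and Car15 the smallest differences were 1.82 and 1.45. Candidates needed a mean log2 CPM of at least 3, which neither gene reached. Genes as low as these were thus left out in advance, and whether they have a close match cannot be told.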

How the data were processed

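RNA from 12 mouse kidneys was sequenced by the authors as stranded mRNA libraries with single reads of 100 bases, mapped to mm10 with STAR and counted per gene with HTSeq (versions, annotation release and strand setting not given in the sources used here). Raw counts per gene were deposited by the authors and carry no normalization. Kidneys were grouped by their titles into 4 controls and 2 ischemic sets of 4.

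The analysis used edgeR 4.0.16 (R 4.3.3). The filter of edgeR (minimum count 10, minimum total 15) kept 11664 of 23420 genes, and libraries were scaled by TMM. The 3 groups were fitted together, and each pair was tested with the two-sided quasi-likelihood F-test, with Benjamini-Hochberg adjustment over the 11664 genes and a threshold of 0.05. CPM used TMM-scaled totals, and exact permutation tests used log2 CPM with a prior count of 2. The 95% intervals were built from the standard error with a normal quantile, and are narrower than intervals matched to the F-test. Exon lengths and positions came from GENCODE M21, and promoters from RefSeq (GRCm38.p6). Depth ranged from 15367342 to 44793350 counts. Replicates of a group differed by at least 48.9 chi-square per degree of freedom. The fit was tested on simulated data.

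The members and gene lists were chosen with earlier results of these data known. All members were named, with up to 5 genes per list by mean CPM and the 3 genes closest to each member (mean log2 CPM of at least 3). Some genes of these lists are not reported here. The alternatives were DESeq2 1.42.0, limma-trend (limma 3.58.1), RLE size factors, no filter, a filter at 1 CPM reached in 4 kidneys, a fit of the 2 groups compared, a replicate block, and each kidney left out. Alternatives chosen after seeing the data were a prior count of 0.5, RLE in the permutation tests, 6 markers in place of 8, and the longest transcript as length. Scripts ran in Python 3.11.15 with SciPy 1.17.1, NumPy 2.4.6, matplotlib 3.10.9 and pandas 2.3.3.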

Additional observations from a re-analysis of the deposited data

Results flagged for a closer look

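In groups of 4 kidneys, 3 values stood apart from the rest of their group by Dixon's criterion. For groups of measured values chance meets it in about 5% of groups. Replicate 4 of the controls had a Slc9a3 level of 51.6 CPM, beside 34.2 to 37.1 CPM in the other controls. Replicate 2 of set A had 0.299 CPM of Car14 and replicate 3 of set B had 2.71 CPM, beside 0 counts in the other 3 kidneys of each set. With 3 kidneys at 0, any value above 0 meets the criterion, so the chance rate does not apply to either Car14 value.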

How the results depend on the processing

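Slc9a3, Slc9a3r1, Slc4a4 and Car12 kept their direction and their side of the threshold against control in 152 of 152 alternative values, with a largest adjusted p of 0.0186 in edgeR, DESeq2 or limma. The Car2 call in set B was lost in 11 of 19 alternatives, among them no filter (adjusted p = 0.052), a fit of the 2 groups compared (0.0644) and 8 fits without a single kidney. Over all 12 fits without a single kidney its log2 fold change lay between 0.53 and 0.83. Car14 in set B passed in 6 of 19, with adjusted p between 0.000471 and 0.253. Without a single kidney, the log2 fold change of Car2 in set A ranged from -0.10 to 0.20, that of Slc9a3r1 in set B against set A from -0.16 to 0.06 and that of Car14 in set B against set A from -4.03 to 7.22, so that these directions are not fixed. The count of all genes between the sets was 1 in edgeR, 44 in DESeq2, 6 without the filter, 0 in limma and 0 in a fit of the 2 groups, and 0 to 7 without a single kidney. It was 7 without replicate 4 of set B. The ratio of Slc4a4 to Slc9a3 in the controls was 10.5 per kilobase of exon, 13.3 per kilobase of longest transcript and 20.6 without division by length. The causes were not tested.

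Same-numbered kidneys did not deviate together, with correlations between -0.055 and 0.045 and 0 of 4 pairs above 0.1 in each comparison, so the numbers are not taken as pairs. With the replicate number as a block, 2491, 2531 and 1 genes passed in set A, set B and set B against set A, and 5, 5 and 0 members. Under this block Car2 in set B had an adjusted p of 0.0521 and Car14 in set B one of 0.0385 in edgeR. Car14 gave no value between the sets in a fit of those sets alone, where it did not pass the filter. After ischemia, 4 of 4 kidneys of each set had 0 counts of Car4, 3 of 4 of each set 0 counts of Car14, and 2 kidneys of set A and 1 of set B 0 counts of Car15, where levels below the floor of 3 counts cannot be told from 0.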

Other observations

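The members did not rank the 8 ischemic kidneys alike. Replicate 4 of set B had the lowest Slc9a3 (4.32 CPM) and the lowest Slc9a3r1 (52.0 CPM) of the 8, and also the highest Car2 (61.1 CPM) and the highest Car12 (173 CPM). Replicate 1 of set A had the highest Slc9a3 (18.5 CPM) and the lowest Slc4a4 (135 CPM), Car12 (76.5 CPM) and Car2 (27.2 CPM). Replicate 1 of set B had the highest Slc4a4, at 462 CPM. These rankings were noticed after the values had been seen, and no test was run on them.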
